A study of Mus musculus with 24 samples.

Results

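The genes followed here are Zic1, Zic2, Zic4, Zic5 and Ndn, 5 of the 30270 genes listed in RNA sequencing tables of mouse nucleus accumbens and ventral tegmental area (VTA). They were picked by symbol, and all 5 were found. The choice rested on their values in nucleus accumbens libraries of mice given morphine or PBS, so those values are a description here and carry no test. The other comparisons used different libraries or a different contrast. All mice were on a C57BL/6 background and were either wild-type (VDR+/+) or Vdr-/-, with no vitamin D receptor. Wild-type mice given PBS are numbered 1, 2 and 3, wild-type mice given morphine 1.0, 1.1 and 1.2, Vdr-/- mice given PBS 7, 8 and 9, and Vdr-/- mice given morphine 2.0, 2.1 and 2.2. Morphine sulfate was injected intraperitoneally at 5 mg/kg. The study's results text places the punches 90 min after injection for both agents, while its methods text gives 60 min for the saline controls, so time after injection and injection cannot be told apart if the second holds. Mice without the receptor received chow enriched in calcium and lactose. The diet of the wild-type mice, and the age and sex of any mouse, are not given in the sources used here.

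Zic genes encode zinc finger transcription factors related to the Gli proteins of the hedgehog pathway. In the embryo they pattern the dorsal and midline nervous system, and in the adult forebrain Zic1 marks neurons of the septum and neighbouring basal forebrain more than the medium spiny neurons that make up most of the accumbens. The genes lie in head-to-head pairs, Zic1 beside Zic4 and Zic2 beside Zic5. Ndn encodes necdin, a protein of the MAGE family that binds E2F1 and the neurotrophin receptor p75 (Ngfr). Only the paternal copy of Ndn is expressed, it lies in the region that is lost in Prader-Willi syndrome, and it is abundant in the hypothalamus.

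On GRCm38 with GENCODE M21 gene models, Zic1 (ENSMUSG00000032368.14) lies at chr9:91358058-91365810 on the minus strand and Zic4 (ENSMUSG00000036972.14) at chr9:91362413-91389348 on the plus strand. Their gene models overlap by 3398 bases on opposite strands, and their starts are 3397 bases apart. Zic2 (ENSMUSG00000061524.8) lies at chr14:122475435-122479852 on the plus strand and Zic5 (ENSMUSG00000041703.7) at chr14:122456795-122465677 on the minus strand. Their starts are 9758 bases apart, with 0 bases of overlap. Ndn (ENSMUSG00000033585.5), a gene of 1 exon, lies at chr7:62346569-62350262 on the plus strand, within the lincRNA gene Gm32061 on the other strand. The kit marks strand, but which strand column was counted is not given in the sources used here, so reads of Zic1 and Zic4 in their overlap, and of Ndn and Gm32061, may not have been kept apart.

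The promoters of Zic1 and Zic4, a pair that moved together in the accumbens, and of Ndn are shown from RefSeq on GRCm38.p6, with 250 bases before the start and 50 after it, 5′ to 3′ on the gene's strand. Capitals mark matches to any of 8 motifs searched on both strands, which were CRE (TGACGTCA), the core of the CRE (TGACG), AP-1 (TGANTCA), NRF1 (GCATGCGC), an E-box (CACGTG), the CCAAT box (CCAAT), the TATA box (TATAAA) and a Zic core (CAGCAGG). The CRE holds its core within it. The windows are chr9:91365719-91366018 (Zic1, minus strand), chr9:91368722-91369021 (Zic4, plus strand) and chr7:62348027-62348326 (Ndn, plus strand).
Zic1: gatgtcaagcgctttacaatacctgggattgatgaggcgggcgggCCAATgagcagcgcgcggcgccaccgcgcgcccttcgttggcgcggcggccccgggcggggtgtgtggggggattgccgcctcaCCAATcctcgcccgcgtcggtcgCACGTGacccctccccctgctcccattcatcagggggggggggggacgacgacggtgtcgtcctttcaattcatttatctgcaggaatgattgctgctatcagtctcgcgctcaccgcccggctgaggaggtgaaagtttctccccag
Zic4: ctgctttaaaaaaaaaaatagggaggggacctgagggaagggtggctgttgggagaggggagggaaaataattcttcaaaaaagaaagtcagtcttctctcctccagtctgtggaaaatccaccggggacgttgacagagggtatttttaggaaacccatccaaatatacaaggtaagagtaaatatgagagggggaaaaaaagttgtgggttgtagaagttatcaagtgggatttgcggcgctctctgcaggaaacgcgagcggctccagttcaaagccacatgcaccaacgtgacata
Ndn: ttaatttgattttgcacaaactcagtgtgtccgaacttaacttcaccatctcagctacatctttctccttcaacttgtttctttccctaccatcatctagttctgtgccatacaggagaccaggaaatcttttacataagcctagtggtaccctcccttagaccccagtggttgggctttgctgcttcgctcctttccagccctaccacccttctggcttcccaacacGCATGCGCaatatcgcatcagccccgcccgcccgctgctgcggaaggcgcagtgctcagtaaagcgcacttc

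The Zic1 window held CCAAT boxes at -205 and -121 and an E-box at -98, each counted from the start site to the first base of the match. The Ndn window held an NRF1 match at -22, and the Zic4 window held none of the 8 motifs. Among 32851 RefSeq promoters of the same length, 37.4% held CCAAT, 7.15% this E-box and 2.71% this NRF1 motif, while CRE was held by 1.79%, its core by 20.8%, AP-1 by 7.81%, the TATA box by 13.6% and the Zic core by 10.5%. The Zic5 promoter also held none of the 8. The windows of Zic1, Zic5, Ndn and Zic4 held 31, 15, 11 and 8 CpG dinucleotides against a median of 7 over all promoters. Motif matches describe these letters and are not evidence that a factor binds. The RefSeq starts of Zic4 and Ndn lie inside the longer GENCODE gene models given above. Zic2 was not among the promoters used.

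There were 12 libraries per region, or 3 in every group, with 9328726 to 30184426 reads on genes (9328726 to 24509922 in the accumbens). Levels are given as CPM, the usual scaling of a gene's reads by the library's total on genes, which gives the same scale across all 24 libraries. The accumbens library of wild-type PBS mouse 2 stands apart from the others in this series, with a low summed level of 10 astrocyte genes (3474 CPM against 4732 to 5514 CPM in the other 11 accumbens libraries), so the results on the 5 genes and the list counts that use it are also given without it. Vdr itself had 0 to 17 reads per library in all 8 groups and averaged 0.407 ± 0.395 CPM (SD, n = 3) in wild-type and 0.409 ± 0.158 CPM (SD, n = 3) in Vdr-/- accumbens after PBS. Vdr reads therefore did not tell the genotypes apart, and which part of the gene is deleted is not given in the sources used here.

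All 4 Zic genes of the set were higher in the accumbens of mice given morphine, in both genotypes and without overlap between the injections. For Zic1 the wild-type mice given PBS had 21.4, 27.9 and 30.2 CPM and those given morphine 67.7, 124 and 75.2 CPM. In Vdr-/- mice Zic1 stood at 27.9, 42.2 and 26.1 CPM after PBS and at 99.2, 99.8 and 130.2 CPM after morphine. Every morphine library was above every PBS library of either genotype, and mouse 1.1 was the highest of the wild-type mice. On the scale of the deposited normalized counts, log2(value + 1), the difference between morphine and PBS was 1.68 (SE 0.23) in wild-type and 1.75 (SE 0.15) in Vdr-/- mice (n = 3 per group).

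Zic4, the neighbour of Zic1, showed the same order at a lower level. Its wild-type libraries had 3.57, 3.96 and 4.28 CPM after PBS and 7.15, 18.8 and 9.68 CPM after morphine. Its Vdr-/- libraries had 4.18, 5.74 and 2.91 CPM after PBS and 17.0, 15.0 and 19.1 CPM after morphine. Mouse 1.1 was again the highest wild-type mouse, and the log2 differences were 1.44 (SE 0.32) in wild-type and 1.98 (SE 0.20) in Vdr-/- mice. The reads of Zic1 divided by those of Zic4 in the same library lay between 5.82 and 9.47 in all 12 accumbens libraries, so these genes kept a similar ratio while both differed between the injections.

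Zic2, which guides midline development, had 4.18, 5.76 and 6.36 CPM after PBS and 11.4, 21.6 and 12.9 CPM after morphine in wild-type mice. In Vdr-/- mice it had 6.77, 7.39 and 4.87 CPM after PBS and 23.4, 16.1 and 25.7 CPM after morphine. The groups did not overlap in either genotype, and the log2 differences were 1.42 (SE 0.26) and 1.72 (SE 0.18) in wild-type and Vdr-/- mice. Zic5, its neighbour, had the fewest reads of the set. It had 2.30, 1.29 and 2.28 CPM after PBS and 3.48, 5.66 and 3.74 CPM after morphine in wild-type mice, and 1.59, 2.48 and 1.48 CPM and 6.69, 5.61 and 6.75 CPM in Vdr-/- mice. These are counts of 15 to 56 reads in the wild-type PBS libraries, and the log2 differences were 1.09 (SE 0.30) and 1.74 (SE 0.20). The wild-type value for Zic5 was 0.81 without wild-type PBS mouse 2, while those of Zic1, Zic4, Zic2 and Ndn were 1.71, 1.42, 1.45 and 1.45.

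Ndn differed from the Zic genes in that its accumbens level was high after morphine in wild-type mice but not uniformly so in Vdr-/- mice. Wild-type mice had 85.0, 99.0 and 70.2 CPM after PBS and 204, 246 and 206 CPM after morphine, with a log2 difference of 1.35 (SE 0.13). Vdr-/- mice had 152, 187 and 165 CPM after PBS and 84.0, 222 and 235 CPM after morphine, with a log2 difference of -0.07 (SE 0.29). Mouse 2.0, at 84.0 CPM, lay within the range of the wild-type PBS mice, and the other Vdr-/- mice given morphine lay above all 3 given PBS. Without mouse 2.0 the log2 difference was 0.41. In the same library of mouse 2.0 the Zic genes were not low, at 99.2 CPM for Zic1 and 23.4 CPM for Zic2.

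**Figure D1:**
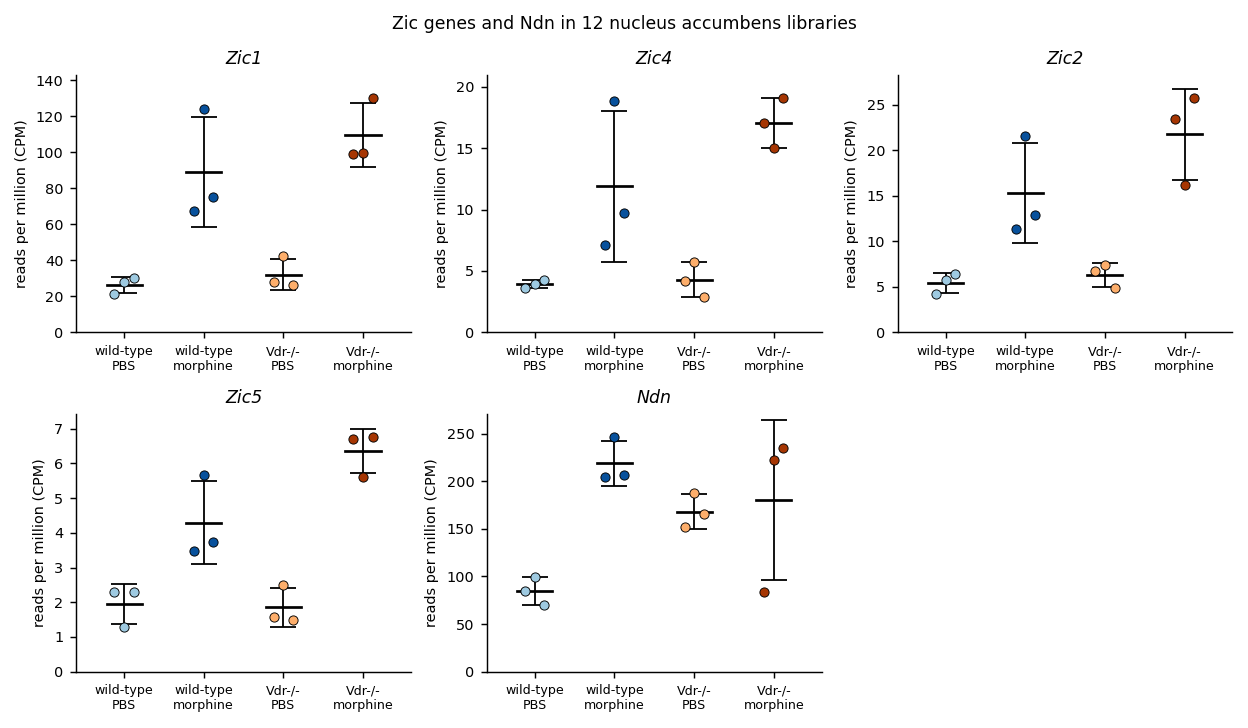
CPM levels (vertical axes, linear from 0) of the 5 genes in the 12 nucleus accumbens libraries, by genotype and injection; each point is 1 library, in order of mouse number, and bars are the mean ± SD (n = 3). The Zic genes sat higher after morphine in both genotypes, whereas for Ndn the Vdr-/- morphine group ran from 84.0 to 235 CPM.

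All 5 genes had every wild-type morphine library above every wild-type PBS library in the accumbens, as did 12.3% of the 15749 genes compared, and 4 of 5 (all but Ndn) did so in Vdr-/- mice, as did 18.5% of 15820 genes. Over all genes, limma called 0.413% higher and 0.400% lower after morphine in wild-type mice, and 9.94% higher and 9.13% lower in Vdr-/- mice, at an adjusted p under 0.05. The wild-type count rests on single libraries, since the 128 genes called became 627 when PBS mouse 2 was left out. Leaving out PBS mouse 1 or 3 gave 4 or 9 genes, leaving out morphine mouse 1.0 gave 21, and leaving out mouse 1.1 or 1.2 gave 0. Because these libraries served to choose the genes, nothing is read from the counts for the 5 genes. The median log2 difference over the 5 genes was 1.42 in wild-type and 1.74 in Vdr-/- mice, beside medians of 0.0075 and -0.0065 over all genes.

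Compared per length of exon, Ndn stood highest of the 5 genes in the wild-type PBS accumbens, at 22.9 ± 3.90 CPM per kb (SD, n = 3). Zic1 followed at 4.65 ± 0.80 and Zic2 at 1.89 ± 0.39 CPM per kb. Zic5 at 0.401 ± 0.119 and Zic4 at 0.381 ± 0.0344 CPM per kb came last and did not differ beyond their spread. The length counts every exon of the gene model, 10.335 kb for Zic4 and 4.889 kb for Zic5, so the order depends on it. In CPM Zic4 stood above Zic5, at 3.94 ± 0.355 against 1.96 ± 0.579 (SD, n = 3). After morphine in wild-type mice the order began in the same way, with Ndn at 59.2 ± 6.42, Zic1 at 15.6 ± 5.38 and Zic2 at 5.30 ± 1.91 CPM per kb, and Zic4 (1.15 ± 0.594) and Zic5 (0.879 ± 0.243) again lay within each other's spread. In wild-type VTA after PBS, Ndn had 59.1 ± 4.99 CPM per kb, and Zic2 (3.27 ± 1.24) and Zic1 (3.01 ± 0.88) lay within each other's spread.

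The VTA libraries played no part in the choice of genes, but they carry the mouse numbers of the accumbens libraries that did. If a number marks the same mouse, the VTA values are not independent of the choice. In the VTA limma called 1 of the 5 higher with morphine in wild-type mice, and this was Ndn. Its VTA levels were 228, 230.4 and 197 CPM in wild-type mice 1, 2 and 3 given PBS and 510.0, 344 and 442 CPM in mice 1.0, 1.1 and 1.2 given morphine. The lowest morphine library was above the highest PBS library. The deposited table for this contrast leaves out PBS mouse 3, and over its 3 morphine and 2 PBS libraries the normalized count was 7798 ± 1339 against 4240 ± 31.2, a log2 difference of 0.86 (SE 0.14, limma with Benjamini-Hochberg adjustment over 16187 genes, adjusted p = 0.0299). With all 3 PBS mice it was 0.95 (adjusted p = 0.00671), where 2001 of 16269 genes were called against 591 in the deposited table. The log2 difference stayed between 0.76 and 1.01 with each library left out, but the call was lost without morphine mouse 1.2 (adjusted p = 0.143, with 64 genes called in all). Leaving out PBS mouse 1 (adjusted p = 0.266) or PBS mouse 2 (adjusted p = 0.208) left 1 PBS library, assumed to vary like the morphine group, and then 0 of all genes were called, so those losses say nothing about Ndn in particular.

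The count of 1 of 5 stands beside 3.65% of all genes called in either direction in wild-type VTA. At an unadjusted p under 0.05 in limma, 3 of the 5 passed (Ndn, Zic4 and Zic1), where 24.2% of all genes did. Zic4 was at 2.15, 2.14 and 3.83 CPM after PBS and 3.67, 5.12 and 4.88 CPM after morphine, and its log2 difference of 1.02 (SE 0.22) missed the threshold (adjusted p = 0.0564). Zic1 was at 11.4, 19.0 and 21.0 CPM after PBS and 19.9, 62.3 and 54.4 CPM after morphine, so that mouse 1.0 lay among the PBS mice, and its log2 difference was 1.43 (SE 0.50, adjusted p = 0.152). Without mouse 1.0 both passed, with adjusted p values of 0.0264 for Zic4 and 0.010 for Zic1, and 695 of 16164 genes were called. The values of Zic2 and Zic5 were 0.46 (adjusted p = 0.490) and -0.06 (adjusted p = 0.912).

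In Vdr-/- VTA limma called 0 of the 5 genes between morphine and PBS, with 10% of all genes called, and at an unadjusted p under 0.05 also 0 of 5 passed, where 29.8% of all genes did. DESeq2 and edgeR on recovered reads called 0 as well, beside 1928 and 1769 of 16475 genes. Ndn had 356, 292 and 329 CPM in mice 7, 8 and 9 given PBS and 253, 369.8 and 373 CPM in mice 2.0, 2.1 and 2.2 given morphine, and the ranges overlapped through mouse 2.0. Its log2 difference was -0.07 (95% interval -0.45 to 0.30, 3 against 2 libraries). Zic5 had the largest value of the set, 1.10 (SE 0.52, adjusted p = 0.209). It passed without mouse 2.0 (1.59, adjusted p = 0.0319), where 2272 of 16406 genes were called.

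The difference between the genotypes in the VTA response to morphine was tested over all 12 VTA libraries, and limma called 0 of 16240 genes (0%), with 1739 at an unadjusted p under 0.05. For Ndn the response of Vdr-/- mice minus that of wild-type mice was -0.94 (SE 0.22, unadjusted p = 0.00114 in limma, adjusted p = 0.283). It was -1.26 (adjusted p = 0.517) for Zic1 and -0.69 (adjusted p = 0.510) for Zic4. Over the 10 libraries of the deposited morphine tables limma called 9 genes, and the values for Ndn and Zic4 were -0.93 (adjusted p = 0.191) and -1.17 (adjusted p = 0.142). A difference between genotypes in the response of these genes was therefore not called.

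Summed levels of several marker lists also differed between the injections in the VTA. The counts of list genes called there stand beside 3.65% of all genes called in either direction in wild-type and 10% in Vdr-/- mice. The 12 dopamine neuron genes, which include Slc6a3, the dopamine transporter, summed to 2371 to 2940 CPM in wild-type VTA after PBS and 221 to 579 CPM after morphine, and 9 of 12 passed, all lower. In Vdr-/- VTA they summed to 545 to 2248 CPM and 622 to 1207 CPM, which overlap, and 1 of 12 passed, higher. The 13 hypothalamus genes summed to 20.5 to 124 CPM and 201 to 1043 CPM in wild-type mice, without overlap but with 0 of 10 tested genes called, and to 24.4 to 343 CPM and 121 to 264 CPM in Vdr-/- mice, with 2 of 8 called higher. The 10 oligodendrocyte genes were without overlap in both genotypes, at 12535 to 13636 CPM after PBS and 6418 to 10513 CPM after morphine in wild-type mice (0 of 10 called) and at 12388 to 12786 CPM and 8388 to 9270 CPM in Vdr-/- mice (8 of 10 called lower). The 24 other paternally expressed imprinted genes, the class to which Ndn belongs, were higher after morphine without overlap, at 4761 to 5187 CPM and 5678 to 7719.9 CPM in wild-type mice (1 of 22 called, Dlk1, lower) and at 4593 to 5344 CPM and 5842 to 6263 CPM in Vdr-/- mice (4 of 22 called, all higher). Choroid plexus genes were also without overlap, at 39.8 to 45.1 CPM and 51.2 to 83.4 CPM in wild-type mice (1 of 7 called higher) and at 40.4 to 47.9 CPM and 55.0 to 193 CPM in Vdr-/- mice (1 of 10 called higher). In Vdr-/- mice 1 of 12 dopamine neuron genes and 1 of 10 choroid plexus genes lie near the 10% of all genes called. In wild-type mice 1 of 22 imprinted genes lies near the 3.65%. The part of these shifts in the VTA result for Ndn was not tested. In bulk tissue, fewer cells of a type, less RNA per cell and a punch placed elsewhere cannot be told apart, here and in the accumbens results. Whether punch position differed between the injections was not tested.

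**Figure D2:**
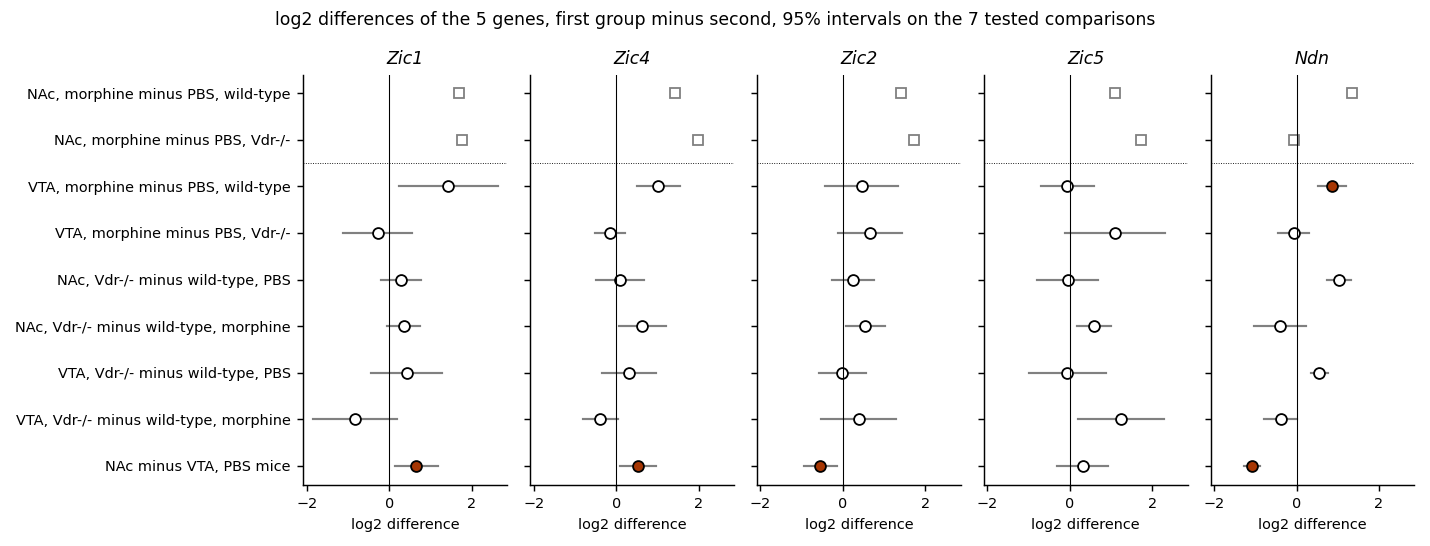
log2 differences (horizontal axes) of the 5 genes in each comparison, first group minus second; squares above the dotted line are the accumbens morphine contrasts that chose the genes and carry no interval or test, circles carry 95% intervals from limma, and filled circles passed an adjusted p under 0.05. Filled circles are Ndn in wild-type VTA (0.86) and 4 genes between the regions.

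Between genotypes, limma called 0 of the 5 genes in any of 4 comparisons, and Ndn came closest. At an unadjusted p under 0.05, 1, 3, 1 and 1 of the 5 passed in limma in the accumbens after PBS, the accumbens after morphine, the VTA after PBS and the VTA after morphine, where 8.94%, 7.73%, 14.2% and 8.77% of all genes did. In the accumbens after PBS its normalized count was 2932 ± 294 in Vdr-/- and 1452 ± 205 in wild-type mice (SD, n = 3 each), a 2.03-fold difference without overlap (log2 1.02, SE 0.12, limma adjusted p = 0.0715), with 0.0690% of 15933 genes called. Without wild-type PBS mouse 2 it was 1.11 and passed (adjusted p = 0.00585), where 28 of 15962 genes were called. Over the other libraries left out in turn the adjusted p ran up to 0.465. DESeq2 on recovered reads called Ndn (adjusted p = 4.95e-09, 64 of 16028 genes called), while edgeR did not (adjusted p = 0.0691, 12 genes called). The 3 wild-type PBS libraries are those of the contrast that chose Ndn, so this is not independent of the choice.

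In the VTA after PBS, Ndn was again higher in each Vdr-/- mouse, at 6496 ± 646 against 4419 ± 416 normalized counts (SD, n = 3 each, log2 0.56, SE 0.09). It missed the threshold in limma (adjusted p = 0.0600), with 0.390% of 16425 genes called. It passed without Vdr-/- PBS mouse 8 (adjusted p = 0.0165, 370 of 16430 genes called). In DESeq2 it also passed (adjusted p = 3.44e-07, 280 of 16563 genes called). These libraries carry the mouse numbers of the accumbens PBS libraries used in the choice. If a number marks the same mouse, this result is not independent of the choice of Ndn. After morphine the sign was the other way in both regions. It was -0.41 (adjusted p = 0.776) in the accumbens, where 0.192% of 15638 genes were called, and 0.07 without mouse 2.0. It was -0.39 (adjusted p = 0.574) in the VTA, where 0.0624% of 16029 genes were called.

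The Zic genes did not pass between genotypes. In the accumbens after PBS their log2 differences lay between -0.05 (Zic5, 95% interval -0.79 to 0.69) and 0.28 (Zic1, 95% interval -0.20 to 0.76). After morphine, in libraries that also served to choose the genes, so that the values are not independent of the choice, the means of all 4 were higher in Vdr-/- mice, by 0.35 for Zic1, 0.54 for Zic2, 0.59 for Zic5 and 0.63 for Zic4, with adjusted p values of 0.695, 0.601, 0.496 and 0.606. Mouse 1.1, the highest wild-type mouse for each of them, overlapped the Vdr-/- range for Zic1, Zic4, Zic2 and Zic5. Without it Zic4 passed (1.02, adjusted p = 0.0263), where 22 of 15610 genes were called. In the VTA after morphine Zic5 stood at 53.2 ± 35.1 against 18.9 ± 2.05 normalized counts (SD, n = 3 each, log2 1.23, adjusted p = 0.533), with every Vdr-/- library above every wild-type one.

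Between regions, 4 of the 5 genes differed in the 12 PBS libraries, where 65.4% of all genes did, so a call there is common. Ndn was lower in the accumbens than in the VTA by 1.08 on the log2 scale (log2 difference -1.08, SE 0.09, limma adjusted p = 4.07e-07), which is 70.2 to 187 CPM against 197 to 356 CPM. Zic2 was also lower in the accumbens (-0.55, SE 0.18, adjusted p = 0.0191). Zic1 (0.65, SE 0.24, adjusted p = 0.0322) and Zic4 (0.53, SE 0.20, adjusted p = 0.0339) were higher there, and Zic5 was not called (0.31, adjusted p = 0.348). The reads of Zic2 divided by those of Zic5 in the same library were 1.82 to 4.47 in the accumbens and 3.96 to 14.9 in the VTA, ranges that overlap, and a difference between this pair was not tested. Without accumbens PBS mouse 2 the same 4 genes passed. The calls for Zic1 and Zic4 were both lost when accumbens PBS mouse 3 or 8, or VTA PBS mouse 1 or 8, was left out. Leaving out accumbens mouse 7 or VTA mouse 2 lost that of Zic4, leaving out VTA mouse 7 that of Zic1, and leaving out accumbens mouse 9 that of Zic2. The accumbens libraries of this comparison are the PBS libraries used in the choice of genes.

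Libraries of both regions carry the same 12 mouse numbers, and Ndn was lowest in the libraries with the same 4 numbers in each. These were wild-type PBS 1, 2 and 3 and Vdr-/- morphine 2.0. In the accumbens the 4 lay at or below 99.0 CPM and the next library at 152 CPM. In the VTA they lay at or below 253 CPM and the next library at 292 CPM. Among 14416 genes with a mean of at least 1 CPM in each region, 202 (1.40%) had the same 4 lowest numbers in both regions, whichever they were. No other gene had these 4, but they were defined by the accumbens values of Ndn itself, so this is no test. The accumbens libraries of wild-type PBS mice 1, 2 and 3 also served to choose Ndn. The accumbens level of Ndn was 0.333 to 0.715 times the VTA level across the 12 numbers. For each Zic gene 2 of the 4 lowest numbers were shared, and the ratio of accumbens to VTA ran from 0.637 to 7.98 for Zic1. The 4 numbers were noticed after the values were seen, and whether a number marks the same mouse in both regions is not stated.

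**Figure D3:**
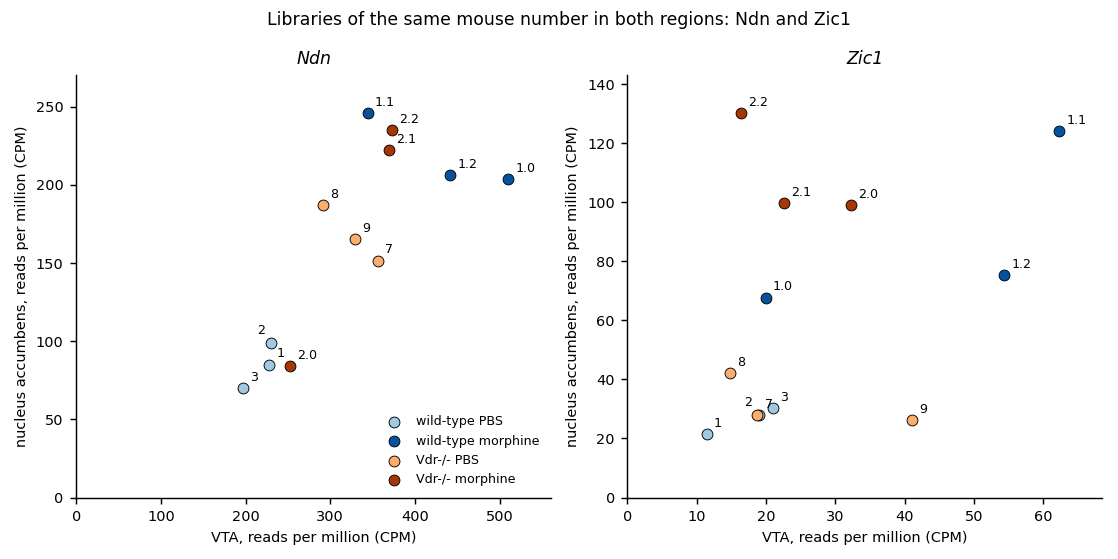
CPM levels in the accumbens (vertical) against the VTA (horizontal) for Ndn and Zic1, both axes linear from 0; each point is a mouse number, labelled, and colored by genotype and injection. For Ndn, numbers 1, 2, 3 and 2.0 form the low end in both regions, at 70.2 to 99.0 CPM and 197 to 253 CPM.

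Within groups the Zic genes varied together from library to library in the accumbens, and less so with Ndn. After the mean of each group was subtracted, Pearson's r over 12 libraries was 0.91 between Zic1 and Zic4, 0.89 between Zic4 and Zic2, 0.87 between Zic1 and Zic2, and 0.60 between Zic2 and Zic5. Between Ndn and the Zic genes it lay between -0.05 and 0.33. These values share libraries and their depth and are given without a test. The 8 genes most like the mean of the 4 Zic genes, of 11674 genes, were Prkcd (0.94), Trpc4 (0.91), Zfp423 (0.90), Prdm16 (0.90), Ano1 (0.89), Esyt3 (0.88), Wbscr17 (0.88) and Siae (0.88), all over 12 libraries. The 8 genes most like Ndn, of 11676 genes, were Tbc1d7 (0.92), Zc3h18 (0.91), F3 (0.90), Srm (0.90), Smyd3 (0.89), Pafah1b2 (0.88), Snrpg (0.88) and Ddx52 (0.88). The values for Ndn lean on mouse 2.0, at 84.0 CPM against 222 and 235 CPM in its group. Those for the Zic genes lean in part on mouse 1.1, for Zic1 at 124 CPM against 67.7 and 75.2 CPM in its group. Top values picked from so many genes over 12 libraries can be high by selection alone.

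Since the Zic genes are known from tissue next to the accumbens, marker lists of neighbouring areas are given beside their levels. The list counts stand beside 0.813% of all genes called in either direction in wild-type and 19.1% in Vdr-/- accumbens. Genes of medium spiny neurons, the cells that make up most of the accumbens, were lower where the Zic genes were high. The 19 genes summed to 9027 to 10327 CPM in wild-type mice after PBS and to 5900 to 7111 CPM after morphine, and to 7697 to 9069 CPM and 5215 to 5972 CPM in Vdr-/- mice. The groups did not overlap in either genotype. In wild-type mice 6 of 19 passed and all 6 were lower, with a median log2 difference of -0.65 over the list, and in Vdr-/- mice 19 of 19 were lower, with a median of -0.59. Ppp1r1b, which encodes DARPP-32, had 759 to 963 CPM after PBS and 464 to 558 CPM after morphine in wild-type mice (-0.83, adjusted p = 0.0347). Scn4b, a sodium channel subunit, had log2 differences of -1.07 (adjusted p = 0.0257) and -1.13 (adjusted p = 0.000131) in wild-type and Vdr-/- mice.

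The 5 septum genes summed to 79.1 to 100.3 CPM after PBS and 99.8 to 161 CPM after morphine in wild-type mice, with 0 of 5 called, and to 88.9 to 117 CPM and 145 to 165 CPM in Vdr-/- mice, with 3 of 5 called higher. Their median log2 differences were 0.87 and 1.00. Trpc4, a cation channel of lateral septum neurons, had 1.07 (adjusted p = 0.108) in wild-type and 1.03 (adjusted p = 0.000942) in Vdr-/- mice, and it is also among the genes most like the Zic genes above. Avpr1a, the vasopressin receptor, had 2.14 (adjusted p = 0.101) and 2.22 (adjusted p = 0.0241), from levels under 1 CPM after PBS. Cholinergic neuron genes summed to 65.3 to 109 CPM after PBS and 99.2 to 167 CPM after morphine in wild-type mice, where 1 of 8 passed. They summed to 60.1 to 109 CPM and 101 to 129 CPM in Vdr-/- mice, where 3 of 8 passed, all higher. Both pairs of ranges overlap, the median log2 differences were 0.25 and 0.52, and 2 of 8 lay below 0 in wild-type mice. Chat, Slc5a7 and Slc18a3 of this list had 0.14, 0.25 and 0.20 in wild-type mice without PBS mouse 2 (limma adjusted p = 0.834, 0.647 and 0.730). Ngfr, the p75 receptor of basal forebrain cholinergic neurons and a binding partner of necdin, had 2.00 to 3.998 CPM after PBS and 9.68 to 20.2 CPM after morphine in wild-type mice. Its log2 differences were 2.23 (adjusted p = 0.0354) and 1.88 (adjusted p = 0.0144) in wild-type and Vdr-/- mice.

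Other lists moved with the Zic genes as well. The 19 meninges genes summed to 68.1 to 72.4 CPM after PBS and 90.9 to 158 CPM after morphine in wild-type mice, and to 69.2 to 75.5 CPM and 129 to 177 CPM in Vdr-/- mice, without overlap in either, and 1 of 17 and 13 of 17 tested genes passed, all higher. Fmod, a matrix protein, had 1.40 (adjusted p = 0.150) and 1.96 (adjusted p = 0.000131), and Aldh1a2, which makes retinoic acid, had 1.02 (adjusted p = 0.189) and 2.03 (adjusted p = 0.000323). The 12 choroid plexus genes summed to 24.5 to 33.7 CPM and 44.3 to 59.7 CPM in wild-type mice, with 0 of 6 tested genes called, and to 26.1 to 37.7 CPM and 46.2 to 57.8 CPM in Vdr-/- mice, with 2 of 5 called higher. The 13 hypothalamus genes summed to 6.90 to 13.3 CPM and 15.8 to 27.9 CPM in wild-type mice, with 0 of 4 called, and 2 of 3 were called higher in Vdr-/- mice. Esr1, the estrogen receptor, had 1.18 (adjusted p = 0.0531) and 1.16 (adjusted p = 0.000311).

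Among the remaining lists, 2 of 10 astrocyte genes passed in wild-type mice, both higher, and in Vdr-/- mice 5 were higher and 1 lower. Gfap, an intermediate filament of astrocytes, had 0.78 (adjusted p = 0.0347) and 1.28 (adjusted p = 0.000383). Ventral striatum genes had 0 of 10 called in wild-type mice, and 6 higher and 1 lower in Vdr-/- mice. Neuroblast genes had 0 of 10 called in wild-type and 3 of 10 higher in Vdr-/- mice, and ependyma genes 0 of 8 and 4 of 7 higher. In wild-type mice 6 of 8 ependyma genes lay below 0 (median -0.13), while in Vdr-/- mice 6 of 7 lay above it (median 0.70). Oligodendrocyte genes had 0 of 10 called in wild-type mice, and 5 lower and 1 higher in Vdr-/- mice. Cortical excitatory neuron genes had 1 of 11 lower in wild-type and 2 of 11 lower in Vdr-/- mice. Thalamus and habenula genes had 1 of 7 higher in wild-type and 1 higher and 1 lower of 6 in Vdr-/- mice, and dopamine neuron genes 0 of 6 and 1 of 6 lower. In Vdr-/- mice 2 of 11 and 1 of 6 lie near the 19.1% of all genes called. Foxa2, a defining marker of dopamine neurons, had 0 reads in all 12 accumbens libraries. The lists were compiled with results of these data known, share libraries with the contrast that chose the genes, and overlap (Igf2 and Peg10, for example, also appear among imprinted genes). Their part in the levels of the Zic genes and Ndn, and that of punch position, was not tested.

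Without wild-type PBS mouse 2, more list genes passed in the wild-type accumbens. Medium spiny neuron genes had 16 of 19 called lower, with a median of -0.62, and Ppp1r1b and Scn4b had log2 differences of -0.77 (adjusted p = 0.00745) and -1.15 (adjusted p = 0.00302). Higher calls numbered 1 of 5 for septum (Avpr1a, 2.61, adjusted p = 0.0108), 2 of 8 for cholinergic neurons, 1 of 5 for hypothalamus (Esr1, adjusted p = 0.0277), 3 of 17 for meninges, 2 of 10 for ventral striatum, 1 of 6 for choroid plexus and 2 of 5 for thalamus and habenula. Astrocyte genes had 3 higher and 1 lower of 10, with Gfap at 0.73 (adjusted p = 0.00749), and cortical excitatory neuron genes 1 of 11 lower. Neuroblast, ependyma, oligodendrocyte and dopamine neuron genes had 0 called. Ngfr was at 2.24 (adjusted p = 0.0115). Of the lists described next, hedgehog genes had 1 of 12 higher (Shh, adjusted p = 0.0412), necdin partners 1 higher and 1 lower of 19 (Ngfr, and E2f1 with an adjusted p of 0.0344), and imprinted genes 7 of 22 higher, with a median of 0.45. These counts stand beside the 627 genes called in all.

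**Figure D4:**
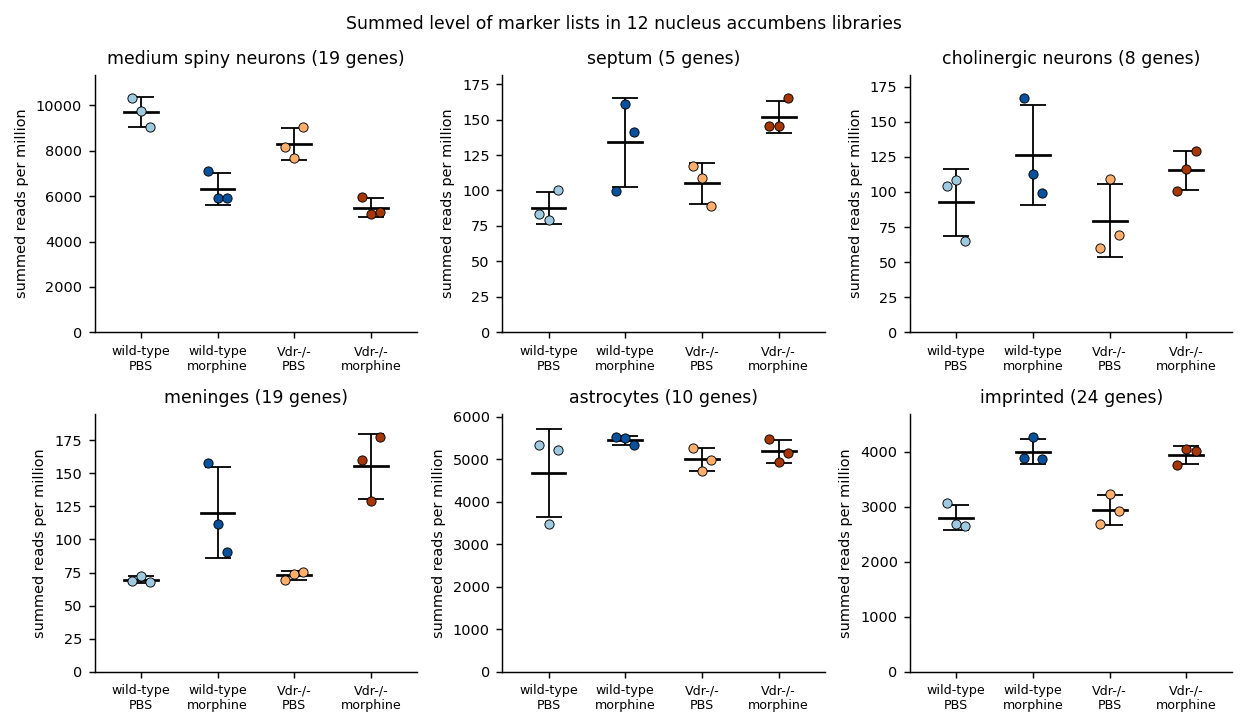
Summed CPM (vertical axes, linear from 0) of 6 marker lists in the 12 nucleus accumbens libraries, by genotype and injection; each point is 1 library, in order of mouse number, and bars are the mean ± SD (n = 3). Medium spiny neuron genes were lower after morphine (5215 to 7111 CPM against 7697 to 10327 CPM), and meninges and paternally expressed imprinted genes were higher.

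Genes of the hedgehog pathway, in which the related Gli factors act, were mixed. In the accumbens 0 of 12 passed in wild-type mice, and in Vdr-/- mice 4 were higher and 3 lower after morphine. Shh, the ligand, had 1.05 (adjusted p = 0.0804) in wild-type and 1.10 (adjusted p = 0.0187) in Vdr-/- mice, at 1.32 to 4.93 CPM. Its receptor Ptch1 had 0.38 (adjusted p = 0.169) and 0.57 (adjusted p = 0.000978), and Gli1, a target of the pathway, 0.44 (adjusted p = 0.410) and 0.93 (adjusted p = 0.0319). In the VTA 0 of 12 passed in wild-type mice, and 2 were higher and 2 lower in Vdr-/- mice. Between genotypes 0 of 12 passed in any of 4 comparisons by limma, where 0.0624% to 0.390% of all genes did.

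Of the 20 binding partners and MAGE relatives of necdin, 1 of 19 tested genes (Ngfr) passed in the accumbens of wild-type mice, and 3 higher and 1 lower did in Vdr-/- mice, where 19.1% of all genes were called in either direction, a share close to that of the list. Magel2, the imprinted neighbour of Ndn on chromosome 7 and also a MAGE gene, had 5.75 to 10.2 CPM after PBS and 10.2 to 23.0 CPM after morphine in wild-type mice (0.83, adjusted p = 0.262). In Vdr-/- mice Magel2 had 4.13 to 9.23 CPM after PBS and 19.98 to 23.8 CPM after morphine (1.76, adjusted p = 0.000395), with no low value in mouse 2.0. E2f1, which necdin binds, was lower, at -0.70 (adjusted p = 0.0563) and -0.63 (adjusted p = 0.00899).

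Other paternally expressed imprinted genes lay mostly above 0 in the accumbens after morphine. Of 25 sought, 24 were found and 22 tested, and 19 of 22 lay above 0 in wild-type mice with 0 called, while 22 of 22 lay above 0 in Vdr-/- mice with 11 called higher. The medians were 0.42 and 0.36. Their summed level was 2656 to 3060 CPM after PBS and 3858 to 4261 CPM after morphine in wild-type mice, and 2689 to 3226 CPM and 3751 to 4054 CPM in Vdr-/- mice, without overlap. Zdbf2 had 0.88 (adjusted p = 0.166) and 0.75 (adjusted p = 0.00114), and Peg10 had 0.76 (adjusted p = 0.237) and 1.18 (adjusted p = 0.0216). Rtl1 had 0 reads in all 12 accumbens libraries. Between genotypes after PBS, where Ndn was 2.03-fold apart in the accumbens, 0 of 22 other imprinted genes passed and their median was 0.05 (0 of 22 and 0.03 without wild-type PBS mouse 2). Only 0.0690% of all genes passed in that comparison and Ndn itself did not, so 0 of 22 says little about the list.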

How the data were processed

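Bilateral punches were sequenced as paired 101-base reads from a directional kit. Per the study's methods, the authors trimmed reads with Trimmomatic 0.36, aligned them with STAR 2.4.2a to GRCm38 with gene counting, and normalized with DESeq2. The deposited signal values are counts divided by DESeq2 size factors, in 8 tables, each normalized separately. All values were whole reads (tolerance 0.01) once multiplied by a recovered size factor, and CPM came from these reads. Genes with a mean of at least 10 were tested with limma 3.58.1 (trend, R 4.3.3) on log2(value + 1), as a two-sided test, and called at a Benjamini-Hochberg adjusted p under 0.05. These fold changes understate those of low genes. edgeR 4.0.16 and DESeq2 1.42.0 on recovered reads, other pseudocounts, filters and scalings, and leaving out each library were alternatives. The code was tested on simulated data. Replicates are libraries of differently numbered mice. Levels in CPM, the VTA interaction and list counts without wild-type PBS mouse 2 were added after seeing the data. The genes and gene lists were chosen with earlier results of these data known. Besides the 5 genes, the text names the genes most alike by group-centred correlation and list genes with their values.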

Additional observations from a re-analysis of the deposited data

How the results depend on the processing

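The number of the 5 genes called was compared across pseudocounts, filters, scalings, tools and left-out libraries. Without a filter on low values 1 gene, Ndn, was called between genotypes after PBS in the accumbens and 1 in the VTA. Over all genes that setting called 13 and 79. DESeq2 called 1, 1 and, in wild-type VTA after morphine, 2, beside 64, 280 and 1420 over all genes. Limma had called 11, 64 and 591 over all genes there. Without the trend 0 were called in wild-type VTA, where Ndn had an adjusted p of 0.105 and 56 genes were called in all. With all 3 PBS mice the log2 differences in Vdr-/- VTA changed sign, to 0.0187 for Zic1, 0.0675 for Zic4 and 0.0063 for Ndn. The region result for Zic1 missed the threshold in edgeR (0.58, adjusted p = 0.0520). The causes were not tested.

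With each library left out, the genes called between genotypes ranged from 0 to 1 in the accumbens after PBS, from 0 to 1 there after morphine and from 0 to 1 in the VTA after PBS. They ranged from 0 to 3 in wild-type and 0 to 1 in Vdr-/- VTA after morphine, and from 2 to 4 between regions. The log2 differences that changed sign ranged from -0.34 to 0.10 for Zic5 (0.094, 0.035 and 0.088 without mouse 1, 7 or 9) and -0.14 to 0.34 for Zic4 between genotypes in the accumbens after PBS, and from -0.67 to 0.074 for Ndn there after morphine. In the VTA after PBS they ranged from -0.0069 to 0.72 for Zic1, -0.27 to 0.26 for Zic2 (0.089 without mouse 7) and -0.35 to 0.35 for Zic5 (0.19 without mouse 9). In the VTA after morphine they ranged from -0.24 to 0.11 for Zic5 in wild-type, and from -0.84 to 0.27 for Zic1 and -0.17 to 0.11 for Ndn in Vdr-/- mice. Zic4 in wild-type VTA also passed without mouse 1.1 (adjusted p = 0.0411), where 2817 of 16213 genes were called.

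Libraries of the same number in both regions had deviations that correlated across genes at -0.0667 to 0.202, with 5 of 12 over 0.1. Each accumbens library was compared with the 3 VTA libraries of its own group, and 8 of 12 correlated best with their own number. With only 3 to choose from, own-number matches can arise often without pairing, so this is a hint from the data only. With the replicate block 4 of the 5 genes were called between regions, the same 4 as without it. Depth limits Zic5 most, at 15 to 102 reads per accumbens library.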
